A study of Mus musculus with 2 samples.

Results

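The 10 genes described here encode ligands of the tumour necrosis factor (TNF) superfamily: Tnfsf4 (OX40L), Lta, Ltb, Tnf, Tnfsf11, Tnfsf14, Tnfsf8, Tnfsf10, Fasl and Cd40lg. They were chosen by symbol through their Entrez identifiers, and all 10 were found among the 13056 genes with such an identifier in a table of 24440 features. The RNA came from wild type CD4+ T cells of C57BL/6 mice aged 6 to 8 weeks, kept for 48 h in Th17-polarizing culture. One culture held wild type antigen presenting cells (the WT-APC library) and the other held APCs carrying an OX40L transgene (the OX40L-TG-APC library), with 1 µg of total RNA behind each. The T cells had the same genotype, strain and polarizing conditions in both. The polarizing agents, the kind of APC, the promoter of the transgene, the number of mice and the share of APCs left at harvest are not given in the sources used here. With 1 library per condition there is no replicate check and no test between conditions, and the statements below are about these libraries.

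TNF superfamily ligands are mostly membrane proteins that act as trimers, and several can also be cut from the cell surface. They bind receptors of the TNF receptor superfamily, which recruit TRAF adaptors and switch on NF-kB, or carry death domains that can start apoptosis. In the OX40 pathway the ligand normally sits on activated antigen presenting cells and the receptor on activated T cells, while activated T cells themselves make many of the other ligands.

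Levels are FPKM (fragments per kilobase of transcript, scaled to library size), which is a level per length and lets genes be set side by side. Depth was estimated from the steps of the lowest FPKM values, at about 24200000 fragments for the WT-APC and 27700000 for the OX40L-TG-APC library. Plain ratios are OX40L-TG-APC over WT-APC, with 95% exact intervals that cover counting error but not variation from culture to culture. The change of a gene is the log2 of that ratio after 1 FPKM is added to both levels, taken where the larger level is 1 FPKM or more, and a gene is called at a change of 2-fold.

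T cell identity genes had similar summed levels over 10 of 10 markers, 2337 FPKM in the WT-APC and 2525 FPKM in the OX40L-TG-APC library. None of them was called, but single markers differed both ways. Cd2 stood at 248 and 407 FPKM (ratio 1.64, 1.59 to 1.69) and Cd28 at 217 and 142 FPKM (0.653, 0.633 to 0.674). Among all 10645 genes that passed the level filter, 1.32% were called lower and 2.26% higher. Markers of B cells and of monocytes and macrophages, which could be APCs, had lower sums with OX40L-TG APCs. The 10 B cell markers summed to 53.6 and 23.3 FPKM, with 8 of 8 kept members below the median of all genes and 3 called lower. The 8 monocyte and macrophage markers summed to 12.8 and 6.12 FPKM, with 2 of 4 kept members called lower. The 7 MHC class II genes summed to 376 and 255 FPKM, with 3 called lower and 6 of 7 below the median of all genes. H2-DMa lay above it, at 15.4 and 23.7 FPKM (ratio 1.54, 1.32 to 1.79). That median change was 0.11, and not all of the 6 genes below it were lower. H2-Ab1 stood at 92.7 and 98.9 FPKM (1.07, 0.999 to 1.14) and H2-DMb1 at 3.62 and 3.26 FPKM (0.901, 0.622 to 1.30). The 8 dendritic cell markers summed to 152 and 190 FPKM, mostly Ccr7, which T cells also express (147 and 188 FPKM), and of the other kept marker, Flt3, the level was called lower. Among them Cd209a was listed at 0 with WT APCs and Clec9a and Siglech at 0 with OX40L-TG APCs. In the other library these 3 stood at 0.0252, 0.0249 and 0.0511 FPKM, from about 0.605, 0.523 and 2.22 fragments. Such values are near the detection limit, and no difference can be read from these zeros. The 2 CD8 T cell markers summed to 7.02 and 6.33 FPKM and the 5 natural killer cell markers to 4.30 and 3.28 FPKM. B cells and myeloid cells can also make lymphotoxins and TNF. The part of these cells in the ligand values was not tested, and in bulk RNA fewer cells of a type and less RNA per cell cannot be told apart.

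Tnfsf4 (Entrez 22164, chromosome 1, 161395438 to 161418206) encodes OX40L itself, the product of the transgene. It was the seventh of the 10 ligands by level with WT APCs, at 2.70 FPKM, and the eighth with OX40L-TG APCs, at 2.14 FPKM. The ratio of 0.790 had an interval of 0.604 to 1.03, from about 121 and 109 fragments. It was 0.727 (0.556 to 0.949) after scaling to a median ratio of 1 over genes with at least 5 FPKM in both libraries and 0.698 (0.534 to 0.912) after scaling to equal sums, so whether the interval includes 1 depends on the scaling. The library labelled OX40L-TG-APC thus did not have the higher Tnfsf4 level. The transgene was in the APCs and not in the wild type T cells, so this level does not check the label, and whether transcripts of the transgene would be counted under this gene is not given in the sources used here.

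Lymphotoxin alpha, RANKL and LIGHT transcripts (Lta, Tnfsf11 and Tnfsf14) were called higher in the OX40L-TG-APC library, and that of lymphotoxin beta (Ltb), by far the most abundant, was just under 2-fold higher. Those of TNF and CD30L (Tnf, Tnfsf8) were higher by less. OX40L, CD40L and Fas ligand transcripts had ratio intervals that included 1 on the deposited scale, and TRAIL (Tnfsf10) was the one ligand with a ratio interval below 1. Of the 9 ligands that passed the level filter, 3 were called higher and none lower, against 2.26% of 10645 genes called higher and 1.32% called lower. The median change of the 9 was 0.54, against 0.11 over all genes, and 6 of the 9 lay above that median. With a pseudocount of 5 FPKM only Lta was called and the median was 0.31. With a filter of 5 FPKM the median of the 6 ligands left was 1.10. Tnfsf11, Tnfsf14 and Tnfsf8 passed that filter only through the OX40L-TG-APC library, so this median is raised by the selection. After scaling to equal sums the same 3 ligands were called higher, against 1.59% of all genes higher and 1.77% lower. Fasl did not pass the filter of 1 FPKM, and Tnfsf10 passed it only through the WT-APC library.

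**Figure D1:**
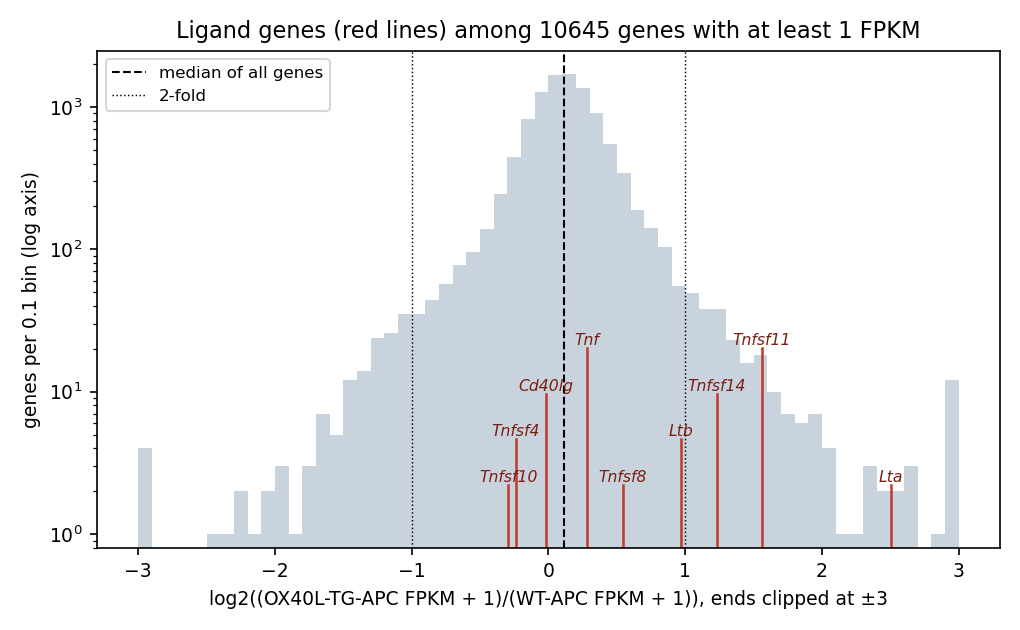
Distribution of the change (log2 of the ratio of FPKM + 1, OX40L-TG-APC over WT-APC) over 10645 genes (grey bars, log count axis, ends clipped at 3), with the 9 ligand genes above the level filter as red lines. Lta at 2.51, Tnfsf11 at 1.56 and Tnfsf14 at 1.23 lie beyond the dotted 2-fold line, and Ltb at 0.97 lies just inside it.

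The summed level of the 10 ligand genes was 228 FPKM in the WT-APC and 451 FPKM in the OX40L-TG-APC library, 1.97 times as much. Ltb made up most of it and took nearly the same share of both sums, 74.7% and 74.4%. The share of Lta was 2.97% of the WT-APC sum and 9.59% of the OX40L-TG-APC sum, and that of Tnf was 14.3% and 8.87%. Of the difference of 222 FPKM between the sums, Ltb held 74.2% and Lta 16.4%. Without Ltb the other 9 genes summed to 57.9 and 115 FPKM, a ratio of 1.99.

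**Figure D2:**
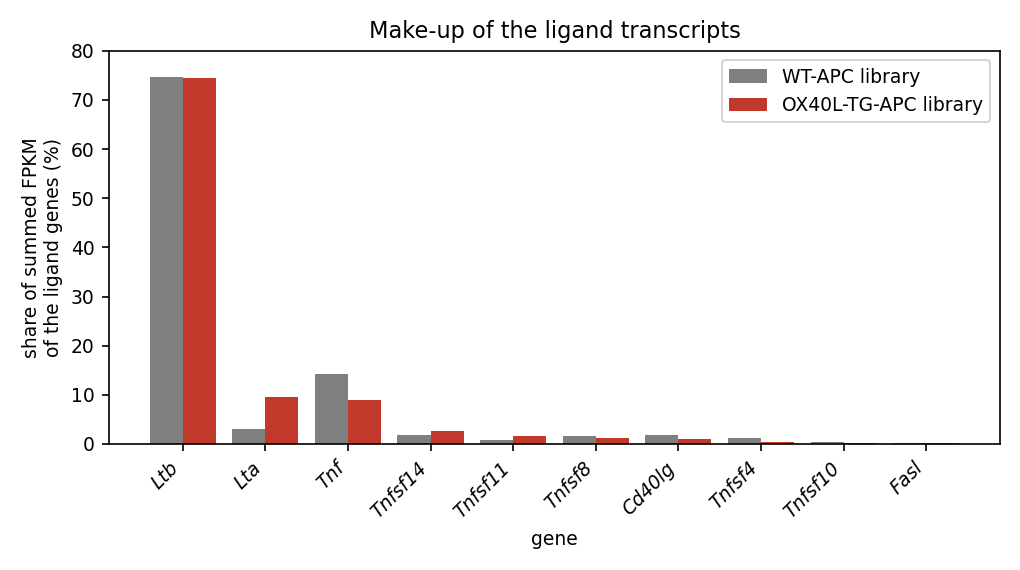
Share of each ligand gene in the summed FPKM of the 10 (bars from 0, in percent), WT-APC library in grey and OX40L-TG-APC library in red. Ltb holds about the same share in both, 74.7% and 74.4%, while the share of Lta is larger (2.97% and 9.59%) and that of Tnf smaller (14.3% and 8.87%) with OX40L-TG APCs.

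Lta, Tnf and Ltb lie side by side in the major histocompatibility complex on chromosome 17, within 11.1 kb. Together they made up 91.9% of the summed ligand level in the WT-APC library and 92.9% in the other. Lta (Entrez 16992, 35203165 to 35205578 in GRCm38) encodes lymphotoxin alpha, which is secreted as a homotrimer or anchored to the membrane with lymphotoxin beta. It stood at 6.78 FPKM with WT APCs and at 43.2 FPKM with OX40L-TG APCs, from about 227 and 1655 fragments. The ratio of 6.37 (5.54 to 7.35) was the largest of the 10 ligands, and the change ranked 18 of 10645 genes. In the authors' deposited table Lta had a log2 ratio of 2.70 with a p-value of 0.0001, which compares the libraries.

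Ltb (Entrez 16994, 35194507 to 35196305) encodes lymphotoxin beta, the membrane-bound partner in the lymphotoxin heterotrimer that engages the lymphotoxin beta receptor. It stood at 170.5 FPKM with WT APCs and 335 FPKM with OX40L-TG APCs, a ratio of 1.97 (1.90 to 2.04). Its change of 0.97 fell short of the call, although the authors' deposited table lists it at a log2 ratio of 1.01 with a p-value of 0.00875. That table holds 4 of the 10 ligands, and its WT-APC values were 0.976 times those of the full table used here. With the authors' FPKM from that table the change of Ltb was 1.00. After the median scaling given for Tnfsf4 it was 0.85 (ratio 1.81, 1.75 to 1.87), and after scaling to equal sums 0.79 (1.74, 1.68 to 1.80).

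Tnf (Entrez 21926, 35199367 to 35202007) encodes the inflammatory cytokine TNF, made as a membrane protein and shed by a protease. It stood at 32.7 FPKM with WT APCs and 39.95 FPKM with OX40L-TG APCs, a ratio of 1.22 (1.13 to 1.32). Its change of 0.28 became 0.16 after the median scaling given for Tnfsf4, and 0.11 after scaling to equal sums. The ratio intervals of Lta, Ltb and Tnf do not overlap each other. With WT APCs the level of Tnf was 4.82 times that of Lta, and with OX40L-TG APCs the level of Lta was 1.08 times that of Tnf. The level of Ltb was 25.2 times that of Lta with WT APCs and 7.76 times with OX40L-TG APCs.

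No other protein-coding gene within 50 kb of the cluster was called, against 2.26% of all genes called higher and 1.32% lower. With so few genes, no call is near that share. Of 7 such genes 6 passed the filter, with changes from -0.20 for Atp6v1g2 to 0.39 for Nfkbil1. The printed loci of the 3 cluster genes do not overlap: 3084 bases lie between those of Ltb and Tnf and 623 between those of Tnf and Lta. The locus printed for Tnf reached 534 bases further upstream than the RefSeq gene. The printed locus of each of the 10 ligands held no other annotated gene, microRNA genes left aside.

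The 250 bases upstream of the start sites are shown for the 3 cluster genes, which lie together and differed in ratio, and for the other 2 ligands called higher. RefSeq promoters (GRCm38.p6) were at hand for 8 of the 10 ligands, and each line runs 5′ to 3′ on the strand of the gene. Capitals mark a match on either strand to a form of the NF-kB site (3 G, any 2 bases, 2 T, any 1 base, 2 C), to TGANTCA on either strand (AP-1) or to TATAAA on the strand of the gene.
Lta (chr17:35205352-35205601, minus strand): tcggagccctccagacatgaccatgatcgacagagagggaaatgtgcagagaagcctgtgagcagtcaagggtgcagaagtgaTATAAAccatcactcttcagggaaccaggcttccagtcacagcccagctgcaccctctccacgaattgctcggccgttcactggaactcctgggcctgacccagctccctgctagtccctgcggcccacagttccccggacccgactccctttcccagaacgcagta
Ltb (chr17:35194257-35194506, plus strand): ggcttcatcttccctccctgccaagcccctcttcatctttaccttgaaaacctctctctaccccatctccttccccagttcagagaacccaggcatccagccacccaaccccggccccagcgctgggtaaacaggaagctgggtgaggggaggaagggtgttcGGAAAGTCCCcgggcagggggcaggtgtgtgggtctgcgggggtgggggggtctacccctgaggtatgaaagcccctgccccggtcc
Tnf (chr17:35202008-35202257, minus strand): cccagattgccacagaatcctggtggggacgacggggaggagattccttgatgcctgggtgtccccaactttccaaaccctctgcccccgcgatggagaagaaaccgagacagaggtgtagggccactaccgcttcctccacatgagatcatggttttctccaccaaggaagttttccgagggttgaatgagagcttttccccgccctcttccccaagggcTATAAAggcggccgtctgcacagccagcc
Tnfsf11 (chr14:78308044-78308293, minus strand): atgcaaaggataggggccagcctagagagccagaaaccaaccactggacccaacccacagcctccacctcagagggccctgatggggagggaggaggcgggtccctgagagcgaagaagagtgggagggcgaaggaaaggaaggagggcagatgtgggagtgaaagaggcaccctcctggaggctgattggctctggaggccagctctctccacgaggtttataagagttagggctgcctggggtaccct
Tnfsf14 (chr17:57194182-57194431, minus strand): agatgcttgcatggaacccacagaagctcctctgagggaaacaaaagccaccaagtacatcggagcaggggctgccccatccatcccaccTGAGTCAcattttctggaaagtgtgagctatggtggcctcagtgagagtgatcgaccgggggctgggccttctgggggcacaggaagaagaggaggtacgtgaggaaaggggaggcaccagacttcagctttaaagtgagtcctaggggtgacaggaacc

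Ltb was the one of the 8 ligand promoters with the NF-kB form, GGAAAGTCCC, which starts 87 bases before the start site. This form was found in 4.00% of 27025 promoters of the same length. TATAAA was found in Tnf, 29 bases before the start site, and in Lta, 167 bases before it, against 8.12% of promoters. The start site used for Lta, 35205351, lies inside the RefSeq gene, which reaches 35205578. Most of the Lta window, with its TATAAA, thus lies within the span of that gene. The start site used for Tnfsf8, 63861284, likewise lies inside a gene that reaches 63861508. The AP-1 form was found in Tnfsf14, as TGAGTCA 160 bases before the start site, against 6.87% of promoters. The marked forms do not overlap each other in these windows. A looser NF-kB form on either strand (3 G, any 5 bases, 2 C), which contains every match of the first form, was found in 6 of the 8 ligand promoters and in 45.4% of all promoters. The promoter of Tnfsf11 held none of the marked forms, and neither did those of Tnfsf8, Tnfsf10 and Fasl. A match describes these letters only, and binding was not measured.

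The transcripts of Lta and Tnf also share an element that the ligand list did not use. AU-rich elements are short repeats of ATTTA in the 3′ untranslated region, bound by proteins such as tristetraprolin that speed mRNA decay. The nonamer TTATTTATT was found in the 3′ untranslated region of 2 of the 10 ligands, Lta and Tnf, and in 8.12% of 10097 genes that passed the level filter. Its first occurrence in each transcript is shown with up to 10 bases on either side and the nonamer in capitals.
Lta: aaaagttaagTTATTTATTtatagagaat
Tnf: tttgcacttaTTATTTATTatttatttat

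Tnf held 5 such nonamers and 8 ATTTA pentamers in 764 bases, or 10.5 pentamers per kb, a density reached by 0.872% of those genes. Lta held 3 pentamers in 572 bases (5.24 per kb) and Tnfsf11 6 in 1131 bases (5.31 per kb), against a median of 1.31 per kb over all genes. Ltb held none in 174 bases, and Tnfsf14 held 1 in 1019 bases. Pentamer density ran from 0.981 to 5.31 per kb in the 3 ligands called higher and was 10.5 per kb in Tnf. Whether this density bears on the ligand levels was not tested.

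Tnfsf11 (Entrez 21943, chromosome 14, 78277446 to 78308043) encodes RANKL, the ligand that drives osteoclast formation and lymph node development. It stood at 1.74 FPKM with WT APCs and 7.08 FPKM with OX40L-TG APCs, a ratio of 4.07 (3.25 to 5.14). About 94 fragments lay behind the lower value and 438 behind the higher one. Its change of 1.56 ranked 66 of 10645, and the log2 ratio in the authors' deposited table was 2.06 (p-value 0.00255). With a pseudocount of 5 FPKM instead of 1 the change was 0.84, short of the call.

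Tnfsf14 (Entrez 50930, chromosome 17, 57189474 to 57194181) encodes LIGHT, a costimulatory ligand that shares the lymphotoxin beta receptor with the lymphotoxin heterotrimer and also binds HVEM. It stood at 4.37 FPKM with WT APCs and 11.6 FPKM with OX40L-TG APCs, a ratio of 2.66 (2.26 to 3.14). The change of 1.23 ranked 140 of 10645, and it was 0.83 with a pseudocount of 5 FPKM. The authors' deposited table lists a log2 ratio of 1.44 (p-value 0.0104).

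Tnfsf8 (Entrez 21949, chromosome 4, 63831202 to 63861508) encodes CD30L, the ligand of CD30. Its level was 3.51 FPKM with WT APCs and 5.58 FPKM with OX40L-TG APCs, a ratio of 1.59 (1.38 to 1.82) that did not reach the call, with a change of 0.54. At a threshold of 1.5-fold 4 ligands were higher, Lta, Ltb, Tnfsf11 and Tnfsf14, against 7.21% of all genes, and none was lower, against 3.38%. These counts are on the log2(FPKM + 1) scale, where Tnfsf8 falls short of 1.5-fold although its plain ratio passes it.

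**Figure D3:**
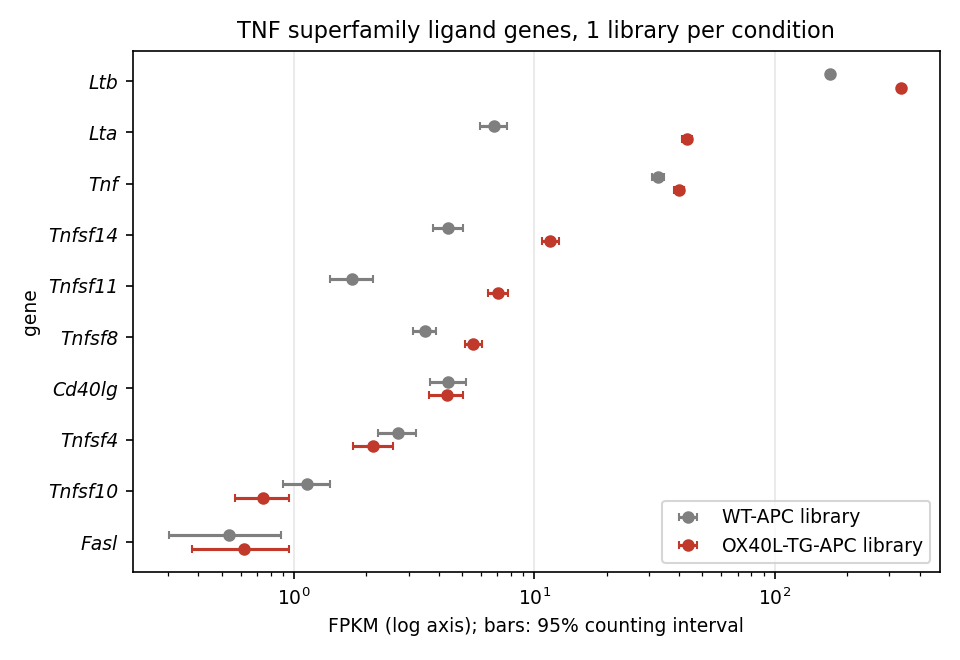
FPKM of each ligand gene (log axis) in the WT-APC library (grey) and the OX40L-TG-APC library (red), 1 library each, with bars for the 95% counting interval. Ltb lies far above the rest in both, and Lta, Tnfsf11 and Tnfsf14 show the widest gaps between the libraries.

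Cd40lg (Entrez 21947, chromosome X, 57212143 to 57224042) encodes CD40L, through which helper T cells activate B cells and dendritic cells. Its values of 4.39 and 4.32 FPKM gave a ratio of 0.983 (0.773 to 1.25). Fasl (Entrez 14103, chromosome 1, 161780691 to 161788495) encodes the death ligand of activated T cells and natural killer cells and lies 362 kb from Tnfsf4. It stood at 0.539 and 0.619 FPKM, from about 15 and 20 fragments, and a difference was not detectable at this depth (ratio 1.15, 0.561 to 2.40). Tnfsf10 (Entrez 22035, chromosome 3, 27317077 to 27339665) encodes TRAIL, another death ligand. It stood at 1.13 FPKM with WT APCs and 0.741 FPKM with OX40L-TG APCs, a ratio of 0.654 (0.462 to 0.921). Its change was -0.29, and with the shortest annotated transcript as its length the interval, 0.349 to 1.21, included 1.

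**Figure D4:**
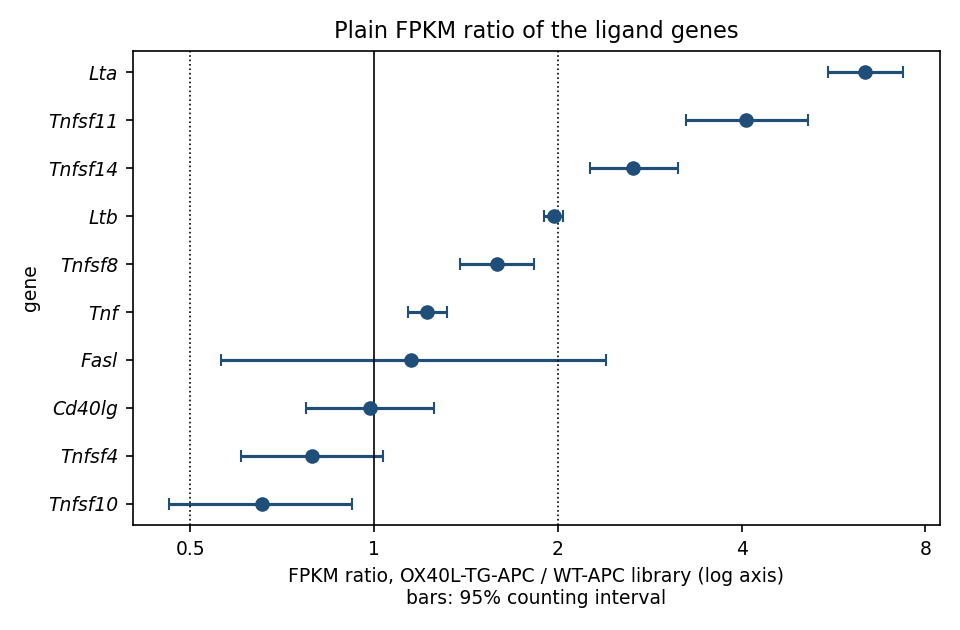
Plain FPKM ratio of each ligand gene, OX40L-TG-APC over WT-APC library (log axis), with 95% counting intervals from 1 library each; the solid line marks 1 and the dotted lines 2-fold. The intervals of 6 genes lie above 1, that of Tnfsf10 lies below it, and those of Fasl, Cd40lg and Tnfsf4 include it.

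By level, the order with WT APCs was Ltb, Tnf, Lta, Cd40lg, Tnfsf14, Tnfsf8, Tnfsf4, Tnfsf11, Tnfsf10 and Fasl. The counting intervals of neighbours overlapped from Cd40lg down to Tnfsf4 and between Tnfsf11 and Tnfsf10. With OX40L-TG APCs the order was Ltb, Lta, Tnf, Tnfsf14, Tnfsf11, Tnfsf8, Cd40lg, Tnfsf4, Tnfsf10 and Fasl, and neighbours overlapped at Lta and Tnf and at Tnfsf10 and Fasl. Tnfsf11 was thus the eighth in the WT-APC library and the fifth in the other. The 4 genes with the lowest ratios, Tnfsf10, Tnfsf4, Cd40lg and Fasl, were all under 5 FPKM in both libraries.

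Of 11 receptor genes on the list 10 were in the table used here and 8 passed the level filter, of which 1 was called lower and none higher, against 1.32% and 2.26% of all genes. Their median change was -0.21, while the summed level of the 10 was 252 FPKM with WT APCs and 352 FPKM in the other library (ratio 1.40), most of it Tnfrsf4. The ratio intervals of Tnfrsf4, Fas and Tnfrsf10b lay above 1. With the shortest annotated transcript as its length, the interval of Tnfrsf10b, 0.981 to 1.71, included 1. Tnfrsf4, which encodes OX40, was the highest at 144 FPKM with WT APCs and 267 FPKM with OX40L-TG APCs, a ratio of 1.86 (1.79 to 1.94). Tnfrsf8, which encodes CD30 and pairs with Tnfsf8, was the one called lower, at 22.1 and 8.61 FPKM (ratio 0.389, 0.357 to 0.423). Its change was -1.27, or -0.996 (short of the call) with a pseudocount of 5 FPKM, and its printed locus spans 47 annotated genes. Ligand and receptor of this pair thus had ratios on opposite sides of 1.

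Both TNF receptor genes were measured. Tnfrsf1a, the death domain receptor of TNF and lymphotoxin alpha, stood at 11.1 and 10.3 FPKM (ratio 0.933, 0.760 to 1.15). Tnfrsf1b, the TRAF-binding receptor of T cells, stood at 22.2 and 13.8 FPKM (0.620, 0.565 to 0.679), at the same 47-gene locus as Tnfrsf8. Tnfrsf14, which encodes the LIGHT receptor HVEM, stood at 25.02 and 19.6 FPKM (0.783, 0.679 to 0.903), WT-APC first. The receptors for the lymphotoxin heterotrimer and for RANKL, Ltbr (0.270 and 0.430 FPKM) and Tnfrsf11a (0.0704 and 0.0888 FPKM), were near the detection limit, with about 3 and 5 fragments for Ltbr and 2 and 3 for Tnfrsf11a. Transcripts of Ltb and Tnfsf11 were thus measured beside few transcripts of these receptors. Fas was 1.37 times as high with OX40L-TG APCs (16.2 and 22.1 FPKM, interval 1.23 to 1.53). The TRAIL receptor gene Tnfrsf10b stood at 3.65 and 4.72 FPKM (1.29, 1.10 to 1.53). Cd40, a receptor of B cells and other APCs, stood at 7.09 and 5.11 FPKM (0.720, 0.543 to 0.954), beside the B cell marker sums of 53.6 and 23.3 FPKM. With the shortest annotated transcript as its length, the interval of Cd40, 0.484 to 1.07, included 1.

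**Figure D5:**
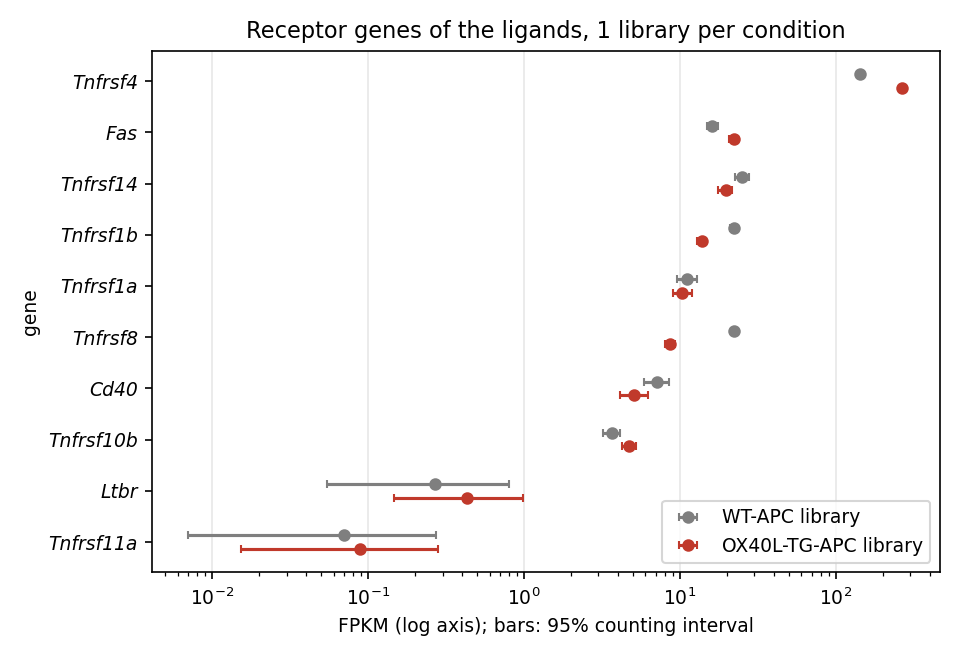
FPKM of 10 receptor genes of the ligands (log axis), WT-APC library in grey and OX40L-TG-APC library in red, 1 library each, bars for the 95% counting interval. Tnfrsf4 is the highest in both libraries, Tnfrsf8 shows the widest downward gap, and Ltbr and Tnfrsf11a lie under 1 FPKM.

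Among the other ligands of the superfamily, 4 of the 8 on the list were in the table used here and 1 passed the filter. This was Tnfsf9, which encodes 4-1BBL, at 13.03 and 11.9 FPKM with a ratio of 0.914 (0.796 to 1.05). Its level with WT APCs lay between those of Tnf and Lta. Genes that cut or process the ligands were not called in any of 7 kept cases, against 2.26% of all genes called higher and 1.32% lower. Their median change was -0.07. Rhbdf1, which encodes an inactive rhomboid protein, stood at 0.187 and 1.00 FPKM, from about 3 and 20 fragments. It passed the filter only through the OX40L-TG-APC library. Its plain ratio was 5.35 (1.63 to 26.3), and with the shortest annotated transcript as its length the interval was 1.01 to 73.4. Its change was 0.75, and the authors' deposited table lists it at a log2 ratio of 2.45 (p-value 0.0492). Adam17, which encodes the sheddase that releases TNF, stood at 21.95 and 22.9 FPKM, and Furin, the highest of them, at 197 and 138 FPKM (ratio 0.700, 0.684 to 0.716).

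Of the 13 genes of receptor adaptors and cell death regulators none was called, against 2.26% of all genes called higher and 1.32% lower. Their median change was 0.11, beside 0.11 over all genes. Birc3, which encodes an inhibitor of apoptosis bound by TRAF proteins, was the highest at 50.4 and 50.1 FPKM. Of the 5 NF-kB subunit genes none was called, with a median of 0.0043. Nfkb1, the highest with WT APCs, stood at 84.4 and 84.7 FPKM (1.00, 0.968 to 1.04), and Nfkb2, the highest with OX40L-TG APCs, at 72.9 and 120 FPKM (1.65, 1.60 to 1.71). Among 14 kept transcription factor genes of T cell activation 1 was called higher, none was called lower, and the median was 0.11. The called gene was Batf3, an AP-1 family gene, at 2.18 and 21.5 FPKM, whose printed locus holds 8 annotated genes. Junb was the highest at 474 and 690 FPKM (1.46, 1.42 to 1.49).

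Genes of mRNA decay factors that act on AU-rich or stem-loop elements of cytokine transcripts had a median change of -0.16. Against 1.32% of all genes called lower and 2.26% higher, 1 of these 7 was called lower and none higher. That gene was Zfp36l1, which encodes a binder of AU-rich elements, at 55.3 FPKM with WT APCs and 26.3 FPKM with OX40L-TG APCs (ratio 0.476, 0.438 to 0.516). Its change of -1.04 was -0.95, short of the call, with a pseudocount of 5 FPKM. Its relative Zfp36, which encodes tristetraprolin, stood at 62.2 and 39.4 FPKM (0.633, 0.603 to 0.665). The highest of the list, Zc3h12d, stood at 106 and 94.3 FPKM. Whether these decay factors bear on the ligand levels was not tested, and mRNA stability was not measured.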

How the data were processed

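RNA-seq was made from 2 T cell cultures, 1 library per condition. The authors deposited FPKM values for both libraries, made with TopHat2 and Cuffdiff on mm9, as the submitters' processing notes list them per the labels. Versions, gene models and strand handling are not given in the sources used here. The printed loci overlapped the GRCm38 gene in 99.7% of cases, and those of Tnfsf4, Ltb and Tnfsf11 had its exact ends. The printed loci thus followed GRCm38 and not the mm9 named in those notes, so RefSeq positions of GRCm38.p6 are given. Which build the reads were aligned to was not checked. Of the deposited FPKM values, 38.4% had 7 significant digits and 99.4% of these ended in 5, as means of 2 values with 6 digits would. A second deposited table lists 398 genes with the authors' log2 ratio (at least 1 in size) and p-value (under 0.05, not adjusted), per the file headers and values.

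Depth was estimated from 88 genes with 1 transcript of at least 1500 bases and values under 0.3 FPKM: at a step ratio of 0.874, 76.1% of their ratios were those of whole fragments within 0.2%, against a median of 4.55% over all ratios tried. Fragments per gene used the median GENCODE M21 transcript length, without a correction for fragment length, so intervals of short genes are rough. Intervals are exact Clopper-Pearson (ratios) or Poisson (levels) at 95% and cover counting error only. Depth and interval code was tested on simulated data. The pseudocount (1 FPKM), the level filter (1 FPKM) and the 2-fold call were used for all 13056 Entrez genes. Alternatives were other pseudocounts, filters, scalings and folds. The ligands and lists were chosen with earlier results of these data known. Named genes were all 10 ligands, their receptors, and in other lists the called genes and the highest member. Tnfsf9 was the only kept gene of its list. Adam17, Rhbdf1, Nfkb1, H2-DMa, H2-Ab1, H2-DMb1, Cd28 and Zfp36 were added after their values were seen. So were the motifs, the AU-rich elements and the 50 kb window around the cluster. Python 3.11.15, numpy 2.4.6, pandas 2.3.3, scipy 1.17.1 and matplotlib 3.10.9 were used.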

Additional observations from a re-analysis of the deposited data

How the results depend on the processing

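With a pseudocount of 5 FPKM, Lta alone remained called among the ligands (1 gene), the ligand median change was 0.31, and 101 genes were called higher and 39 lower over all genes. With a filter of 5 FPKM the median over the 6 ligands left was 1.10. Tnfsf11, Tnfsf14 and Tnfsf8 passed that filter only through the OX40L-TG-APC library, so this median is raised by the selection. A 1.5-fold threshold called 767 genes higher and 360 lower, and genes whose printed locus holds 1 gene gave 145 and 73, since 5759 genes were tested. Ltb took 70.6% (WT-APC) and 72.5% (OX40L-TG-APC) when the other ligands of the superfamily joined the sum. With a pseudocount of 0.5 FPKM, no filter, a filter of 5 FPKM or either scaling, Lta, Tnfsf11 and Tnfsf14 stayed called and no ligand was called lower. Setting the median ratio of well-expressed genes to 1 moved the median change of all genes from 0.11 to 0.0033 and the share of higher among called genes from 63.1% to 52.7%; with equal sums that share was 47.3%. Of 116 values of single genes under other pseudocounts, scalings or the authors' second table, 84 stayed within the counting interval, 32 left it and no called gene changed sign; filters leave such a value as it is. No paired analysis was possible because each condition has 1 library. Depth limits Fasl, Ltbr, Tnfrsf11a, Rhbdf1, Cd209a, Clec9a and Siglech.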
